A study of Mus musculus with 23 samples.

Results

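The genes described here are 9 extracellular proteases and protease inhibitors, taken from a named list and matched to the deposited gene table by gene symbol through the GENCODE annotation: Mmp2, Mmp12, Mmp14, Plau, Plaur, Timp1, Timp2, Adam8 and Adam17. All 9 were among the 35825 genes of the table, and all 9 were among the 17102 genes left to test by a filter that asked for 3 or more libraries with a normalized count of 10 or more. The study sorted microglia, the resident macrophages of the retina, from mice with and without Spp1, which encodes the secreted protein osteopontin, and sequenced their RNA. It asked how loss of Spp1 alters microglia in glaucoma and after optic nerve injury. There were 23 libraries in 6 groups, with 4 libraries in each group except WT ONC, which had 3.

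WT libraries came from CX3CR1-GFP mice (Cx3cr1 tm1Litt) with intact Spp1, and KO libraries from Spp1 KO; CX3CR1-GFP mice, bred to homozygosity for the global Spp1 tm1Blh allele. All 6 groups therefore carried the GFP knock-in at the Cx3cr1 locus. The CX3CR1-GFP mice crossed with Spp1 KO mice were heterozygous, and the number of GFP alleles in the sorted mice was not given in the sources used here. Naive libraries are titled control, and their titles name no injury. The paper's methods state that control mice of the microbead model were injected with sterile saline, and the titles do not say whether these were. IOP mice were studied 4 weeks after microbeads were injected into the anterior chamber of the eye to raise intraocular pressure, and ONC mice were studied 7 days after a crush of the optic nerve. The paper's methods state that retinas of several mice of 1 genotype and condition were pooled before live single GFP+ cells were sorted. A legend of the same paper gives n = 4 mice for gene expression in such cells. It is therefore not settled whether a library was a pool or 1 animal. Ages were not given in the sources used here. Since nothing settled whether the libraries of a group were separate animals or separately prepared pools, p-values measured only the spread between these libraries.

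Each library held between 22180480 and 30296094 reads on genes, and 3 reads corresponded to 2.41 to 4.03 normalized counts, the unit of all levels below. Spp1 itself went against some of the KO labels: it ranged from 334 to 1518 in WT naive, 1343 to 2772 in WT IOP and 14557 to 22906 in WT ONC libraries, and from 6.78 to 350.2 in libraries labelled KO naive, 9.28 to 811 in those labelled KO IOP and 15.0 to 6811 in those labelled KO ONC. Of these, 6 libraries labelled KO held more than 100 normalized counts of Spp1. Spp1 was lower in KO than in WT by log2 fold changes of -3.66 ± 1.58, -4.23 ± 1.58 and -3.71 ± 1.70 (SE) in naive, IOP and ONC. The ranges of the genotypes did not overlap in IOP or ONC. None of these differences was called (limma, adjusted p = 0.261, 0.141 and 0.506), so every genotype comparison below compares libraries by label. Libraries also differed in purity. A list of 10 microglia markers held 2.40% to 3.46% of normalized counts in 18 libraries and 1.16% to 2.01% in the other 5, which were KO naive replicates 1, 2 and 4 and WT IOP replicates 1 and 4. The same 5 libraries held the highest shares of a list of 10 rod photoreceptor markers, 2.33% to 3.43%, against 0.488% to 1.81% in the rest. Cx3cr1 averaged 41166 in WT IOP and 1083 in KO IOP libraries, and 4 Y-chromosome genes together held at most 169 normalized counts in any KO IOP library against at least 1269 in any WT IOP library. Genotype, the Cx3cr1 level and the sex of the mice cannot be told apart in that comparison. In KO naive, Cx3cr1 averaged 20863 and the Y-chromosome genes held 3593, 4927, 184 and 4873 in replicates 1 to 4. KO IOP against KO naive and the genotype by IOP interaction therefore carry both differences as well. In KO naive replicate 3 a higher microglia share and few Y-chromosome transcripts coincide and cannot be told apart. The Y-chromosome genes held 4633, 159 and 108 in WT ONC replicates 1 to 3, and 3432, 2919, 5001 and 3084 in KO ONC replicates 1 to 4. KO ONC against WT ONC and the genotype by ONC interaction therefore carry a difference in sex as well.

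Matrix metalloproteinases are zinc enzymes that cut collagens, laminins and other matrix proteins, and most are secreted as inactive proenzymes. MMP14 is anchored in the membrane and, with TIMP2 as an adaptor, activates pro-MMP2 at the cell surface. TIMPs otherwise block the active sites of metalloproteinases. Urokinase, the product of Plau, converts plasminogen to plasmin while bound to its receptor, the product of Plaur. ADAM8 and ADAM17 are membrane proteases that release the outer domains of other surface proteins, among them TNF in the case of ADAM17. Microglia use such enzymes to move through tissue and to shed cytokines and receptors.

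The RefSeq promoter table for GRCm38.p6, with 250 bases before and 50 bases after each start, held 8 promoters of 7 of the genes. Mmp2 and Plau are named only. Both strands were searched for the AP-1 motif TGANTCA, which reads the same on both strands, and for the PU.1 motif GAGGAAGT. The letters of AP-1 stood in 1 Plaur promoter and 1 of the Mmp12 promoters, as in 7.808% of all 32851 promoters, and those of PU.1 in the other Mmp12 promoter, as in 3.202% of all promoters. The 150 bases before each start with an AP-1 match are shown because the levels of these genes took different courses after nerve crush, as given below. Both lie on the plus strand, at chr7:24462333-24462482 for Plaur and chr9:7347224-7347373 for Mmp12, and capitals mark the match, which begins 69 bases before the start of Plaur and 44 bases before that of Mmp12.
Plaur: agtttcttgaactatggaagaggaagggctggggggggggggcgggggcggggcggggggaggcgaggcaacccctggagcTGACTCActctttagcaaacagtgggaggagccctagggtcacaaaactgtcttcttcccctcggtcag
Mmp12: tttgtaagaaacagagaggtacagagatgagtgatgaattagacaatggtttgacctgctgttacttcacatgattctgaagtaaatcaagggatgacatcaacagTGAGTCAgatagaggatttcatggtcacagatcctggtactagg

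Levels were compared between genes only after division by the summed length of each gene's exons in kilobases (kb), from 888 bases for Timp1 to 7237 bases for Mmp12. In WT naive microglia Adam17 had the highest level per length, at 965 ± 163 normalized counts per kb (SD, n = 4), followed by Timp2 at 249 ± 8.22 and Mmp2 at 209.6 ± 41.6. Plaur stood at 129.6 ± 28.0, Plau at 53.7 ± 14.6, Mmp12 at 44.1 ± 19.4, Mmp14 at 29.6 ± 11.3 and Adam8 at 14.4 ± 8.70. Timp1 was lowest, at 4.59 ± 3.35, from 19 reads over the 4 libraries together. After nerve crush the WT order began with Adam17 at 1250.3 ± 271, Mmp2 at 1012 ± 488, Timp2 at 613 ± 172 and Plaur at 478 ± 48.4, and Mmp14 had passed Plau and Mmp12 at 273 ± 55.3. In WT IOP libraries Timp1, at 392 ± 309.7 per kb, ranked second behind Adam17. Adam17 was highest per length in 5 of the groups, and in KO ONC libraries its mean of 1072 lay within 1 SD of that of Mmp2, 1100.3 ± 241. All 9 are protein-coding genes, and positions below are those of GENCODE vM21 on GRCm38.

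**Figure D1:**
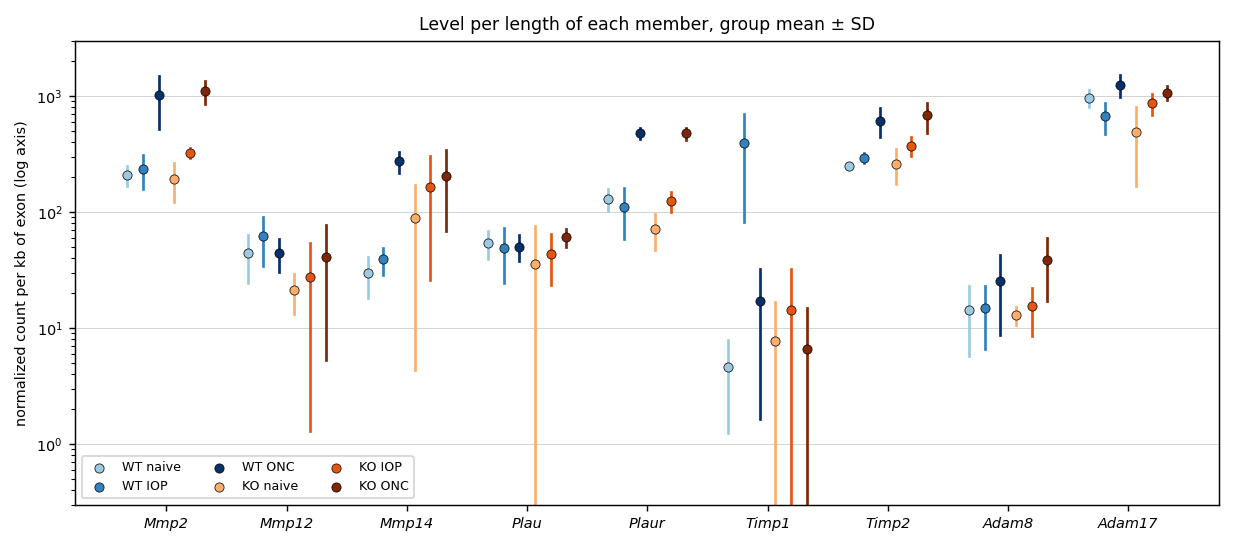
Group mean (points) ± SD (vertical lines) of each gene's normalized count per kb of exon, on a log axis, in the 6 groups; lines that would pass below the axis are cut at its lower end. Adam17, Timp2 and Mmp2 lie highest in naive libraries, Mmp2, Plaur and Mmp14 lie higher in WT ONC than in WT naive, and Timp1 is high in WT IOP libraries alone.

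Injury was compared with the naive state within each genotype, KO with WT within each condition, and the injury effects between genotypes by an interaction term. A gene was called changed at an adjusted p below 0.05 and an absolute log2 fold change above 0.58 in limma's fit of log2(normalized count + 1) over all tested genes. Crush in WT gave 4 calls among the 9 genes, all higher, where 18.1% of all tested genes were called, and the median log2 fold change was 0.90 for the 9 genes and -0.10 for all genes. Crush in KO also gave 4 calls, all higher, where 23.6% of all genes were called, with medians of 1.37 and -0.12. Raised pressure gave 1 call in WT, where 1.56% of all genes were called, and 1 call in KO, where 7.88% were called, both higher. KO against WT gave 0 calls in naive libraries, where 0.409% of all genes were called, 1 lower call after raised pressure, where 2.11% were called, and 0 calls after crush, where 0.0877% were called. The genotype by IOP interaction gave 2 calls, where 8.75% of all genes were called, and the genotype by ONC interaction gave 0, where 0.0702% were called. Before adjustment, p was under 0.05 for 2 genes in the naive comparison of genotypes, for 0 after crush and for 2 in the interaction with ONC. Comparisons within a genotype shared their naive libraries.

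**Figure D2:**
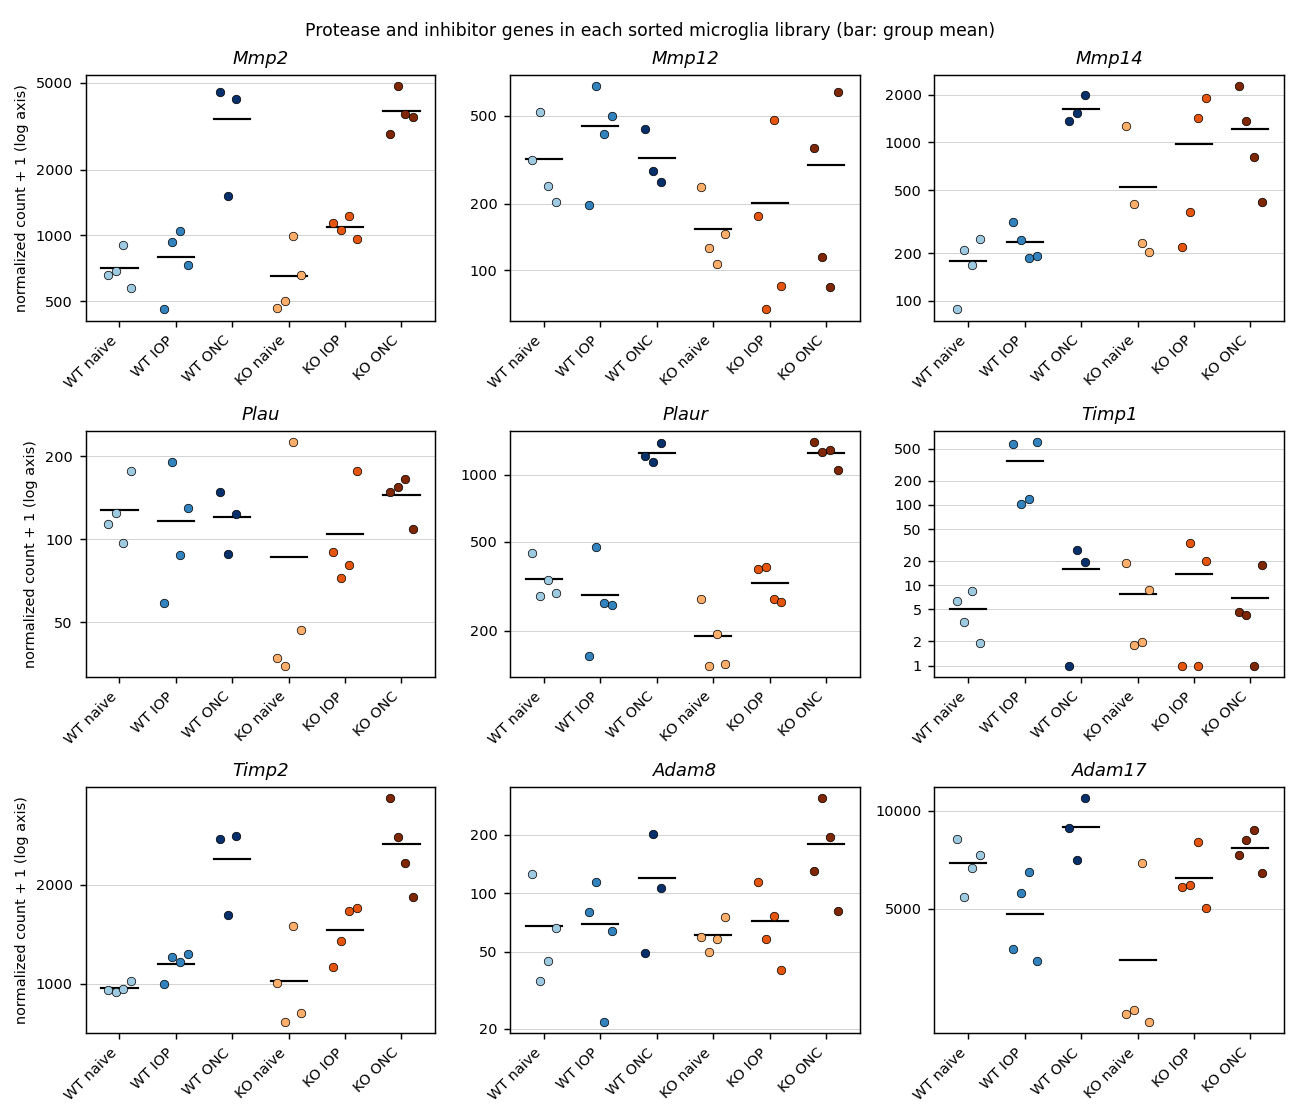
Normalized count plus 1 of each gene in each of the 23 libraries (points, log axis), with the group mean as a bar. WT ONC libraries of Mmp2, Mmp14, Plaur and Timp2 lie above all WT naive libraries, WT IOP libraries of Timp1 lie above all others, and 3 of the 4 KO naive libraries of Adam17 lie below all others.

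Mmp2, gelatinase A (chr8:92827291-92853420, plus strand), was higher after crush in both genotypes. Its normalized counts were 659.6, 686, 905 and 576 in WT naive libraries, 457, 928, 1049 and 732 in WT IOP libraries, and 4512, 1518 and 4201 in WT ONC libraries. All 3 crush libraries lay above all WT naive and IOP libraries, and WT ONC replicate 2, the lowest of them, also had the lowest microglia share (2.40%) and the highest rod share (1.81%) of its group. The log2 fold change of WT ONC over WT naive was 2.14 ± 0.33 (SE; adjusted p = 0.000141, limma), a ratio of means of 4.83. Libraries labelled KO held 465, 500.2, 994 and 655 in naive, 1135, 1059.8, 1226 and 965 in IOP, and 2927, 4847, 3591 and 3472 in ONC. The KO ONC libraries lay above all KO naive and KO IOP libraries, with a log2 fold change of 2.55 ± 0.31 (adjusted p = 1.1e-05, limma). KO naive replicate 3, the highest of its group for Mmp2, was its only library with a microglia share above 2.2%. Without the 5 libraries of low microglia share the KO ONC log2 fold change was 1.87 (adjusted p = 0.0605, limma), with 1 KO naive library left, which is assumed to vary like the other groups, and without the 6 libraries labelled KO with Spp1 above 100 it was 2.38 (adjusted p = 0.0506), with 1 KO ONC library left under the same assumption. Raised pressure did not change Mmp2 past the threshold in WT (0.12 ± 0.31, adjusted p = 0.914) or in KO (0.81 ± 0.31, adjusted p = 0.0989).

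Mmp14, the membrane-anchored activator of pro-MMP2 (chr14:54431612-54445364, plus strand), had the largest change of the 9 genes after crush in WT. In WT, Mmp14 stood at 87.0, 208, 166 and 244 in WT naive, 315, 241, 185 and 189.7 in WT IOP, and 1360, 1530.5 and 1997 normalized counts in WT ONC libraries. The 3 crush libraries lay above every naive and IOP library of that genotype. The log2 fold change was 3.28 ± 0.68 (adjusted p = 0.00203, limma), a ratio of means of 9.23, and it was called in each of the 7 fits that left out 1 library. In libraries labelled KO, Mmp14 varied far more, at 1261, 407, 231 and 201 in naive, 216, 362, 1428 and 1916 in IOP, and 2284, 1372, 811 and 417 in ONC. The 3 KO groups overlapped. KO naive replicate 1, the highest naive library, had the highest share of 10 mural cell and fibroblast markers, 0.0328% against 0.000401% to 0.0140% in all other libraries. It also had the highest shares of endothelial (0.0477%) and pigment epithelium markers (0.137%) and the lowest microglia share (1.16%). The libraries labelled KO with more Mmp14 had mural and fibroblast shares of 0.00137% and 0.000401% in ONC replicates 1 and 2. In IOP replicates 3 and 4 these shares were 0.00671% and 0.00559%. The part of any of these cell types in the Mmp14 level was not tested. The KO ONC log2 fold change was 1.37 ± 0.63 (adjusted p = 0.118), and it passed without KO naive replicate 1 (1.93, adjusted p = 0.0329) or without KO ONC replicate 4 (1.79, adjusted p = 0.0485). The difference between the genotypes' crush effects, -1.91 with a 95% interval from -3.84 to 0.02, did not pass the threshold (adjusted p = 0.405, limma).

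Mmp12, macrophage elastase (chr9:7344381-7369499, plus strand), was called in none of the 9 comparisons in limma's fit. It ranged from 203 to 518 in WT naive, 196 to 684 in WT IOP and 250.3 to 436 in WT ONC libraries, and from 106 to 237 in KO naive, 65.3 to 478 in KO IOP and 82.5 to 642 in KO ONC libraries. All 6 groups overlapped with their neighbours in the order of means. After crush its log2 fold change was 0.07 in WT with a 95% interval from -1.30 to 1.43, and 0.56 in KO with an interval from -0.70 to 1.82. KO IOP libraries averaged 201 ± 191 against 449 ± 203 in WT IOP (SD), a difference of -1.47 ± 0.61 on the log2 scale that did not pass the adjusted threshold (adjusted p = 0.177, limma).

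Plaur, the urokinase receptor (chr7:24462484-24475968, plus strand), rose after crush in both genotypes. Plaur had normalized counts of 444, 284, 335 and 294 in WT naive, 153, 475, 264 and 259.7 in WT IOP, and 1216, 1145 and 1391 in WT ONC libraries. In libraries labelled KO, Plaur had 278, 138, 192 and 141 in naive, 376, 385, 275 and 268 in IOP, and 1403, 1268, 1286 and 1048 in ONC. In each genotype the crush libraries lay above all others, with no overlap. The log2 fold change of ONC over naive was 1.90 ± 0.31 in WT (adjusted p = 0.000182, limma), and 2.79 ± 0.28 in KO (adjusted p = 2.3e-06, limma). It was called in all 11 alternative fits and in every fit that left out 1 library, in both genotypes. After crush the 2 genotypes had means of 1251 each, and their difference was -0.0024 on the log2 scale with a 95% interval from -0.64 to 0.63. In the naive state all KO libraries lay below all WT libraries, at means of 187 ± 65.1 and 339 ± 73.2 (SD, n = 4 each), which in limma's fit gave -0.89 ± 0.28 (adjusted p = 0.118). KO naive replicate 3, with a microglia share of 3.36%, held 192 and the library with the lowest share, replicate 1, held 278, both below every WT naive library.

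Plau, urokinase (chr14:20836660-20843385, plus strand), was not called in any comparison. Its normalized counts were 113, 123, 96.3 and 176 in WT naive, 57.7, 190.5, 86.8 and 128.5 in WT IOP, and 148, 87.5 and 123 in WT ONC libraries. Libraries labelled KO held 35.9, 33.8, 225 and 45.9 in naive, 88.6, 71.3, 79.4 and 176 in IOP, and 147, 153, 165 and 108 in ONC. The WT groups overlapped, with a crush effect of -0.09 (95% interval -1.22 to 1.04). Among KO naive libraries, replicate 3 held 225 and the 3 libraries of low microglia share held 33.8 to 45.9. The KO ONC effect of 1.23 ± 0.50 (adjusted p = 0.0778) was 1.86 (adjusted p = 0.00189) without that library, and it was -0.66 without the 5 libraries of low microglia share. Plaur thus gave a call after crush in WT where Plau gave none, and no test compared the 2 genes directly.

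Timp1, a secreted inhibitor of many metalloproteinases (chrX:20870166-20874735, plus strand), was high in WT IOP libraries and near the detection limit elsewhere. Normalized counts of Timp1 were 5.33, 2.45, 7.60 and 0.929 in WT naive, 565, 103, 118 and 606 in WT IOP, and 0, 26.5 and 18.7 in WT ONC libraries. In libraries labelled KO, Timp1 had 18.0, 0.804, 0.969 and 7.65 in naive, 0, 32.1, 0 and 19.2 in IOP, and 3.59, 3.26, 0 and 16.7 in ONC. The 4 WT IOP libraries lay above the other 19, and 4 of those 19 held 0 reads, which allows up to 3 reads. The log2 fold change of WT IOP over WT naive was 5.87 ± 1.27 (adjusted p = 0.0177, limma) on the scale of log2(normalized count + 1), and 4.90 with 5 added in place of 1. KO IOP differed from WT IOP by -5.65 ± 1.27 (adjusted p = 0.0216, limma), and the genotype by IOP interaction was -5.82 ± 1.79 (adjusted p = 0.0455, limma). The WT IOP call was lost without WT naive replicate 2 or 4, or without WT IOP replicate 1 or 4, with log2 fold changes of 5.45 to 5.76 and adjusted p = 0.0547 to 0.0855 in these 4 fits, and without the 5 libraries of low microglia share it was 4.67 (adjusted p = 0.41). The lower KO IOP level was not called without WT IOP replicate 1 or 4 or KO IOP replicate 1 or 3, at -5.27 to -4.87 and adjusted p = 0.0621 to 0.0974, and the interaction was called in 5 of the 16 fits that left out 1 library.

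The WT IOP libraries, high in Timp1, also held transcripts of another tissue. A list of 9 lens markers held 0.913%, 0.191%, 0.129% and 0.985% of the normalized counts in WT IOP replicates 1 to 4, and 0.00135% to 0.0150% in the other 19 libraries. Among those 19, Timp1 was highest in KO IOP replicate 2, at 32.1 with a lens share of 0.00312%. KO naive replicate 3, with their highest lens share of 0.0150%, held 0.969. For 7 of the 9 lens genes all 4 WT IOP libraries lay above all others. The 2 libraries with the higher lens shares were those with Timp1 above 500, and the same 2 had microglia shares of 1.82% and 2.01%. Gfap and Vim, intermediate filaments of reactive astrocytes and Müller glia, averaged 1540 and 3716 in WT IOP libraries against 273 and 828 in WT naive. The share of 10 Müller glia and astrocyte markers was 0.807%, 1.69%, 1.07% and 0.686% in WT IOP replicates 1 to 4. Most of it was Apoe, at 140262, 400430, 221520 and 108996 normalized counts. Apoe and Glul were lower in replicates 1 and 4, the 2 libraries with the higher Timp1 levels. Gfap (2469, 866, 542 and 2283), Vim (5336, 2456, 1656 and 5417), Crym and Slc1a3 were higher in these 2. Rlbp1, Aqp4, Dkk3 and Kcnj10 overlapped between the 2 pairs of libraries. A list of 8 monocyte and neutrophil markers summed to 3617, 2110, 1921 and 4374 normalized counts in WT IOP replicates 1 to 4 and to 252 to 943 in WT naive, with 3 of its 8 genes higher in all WT IOP than in all WT naive libraries. Lcn2, which reactive astrocytes also express, held most of that sum in replicates 1 and 4, at 3067 and 3565, while Ccr2 and Ly6c2 overlapped between the groups. Fewer cells of a type and less RNA per cell cannot be told apart in such bulk libraries, and the part of lens, glial or myeloid transcripts in the Timp1 level was not tested.

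**Figure D3:**
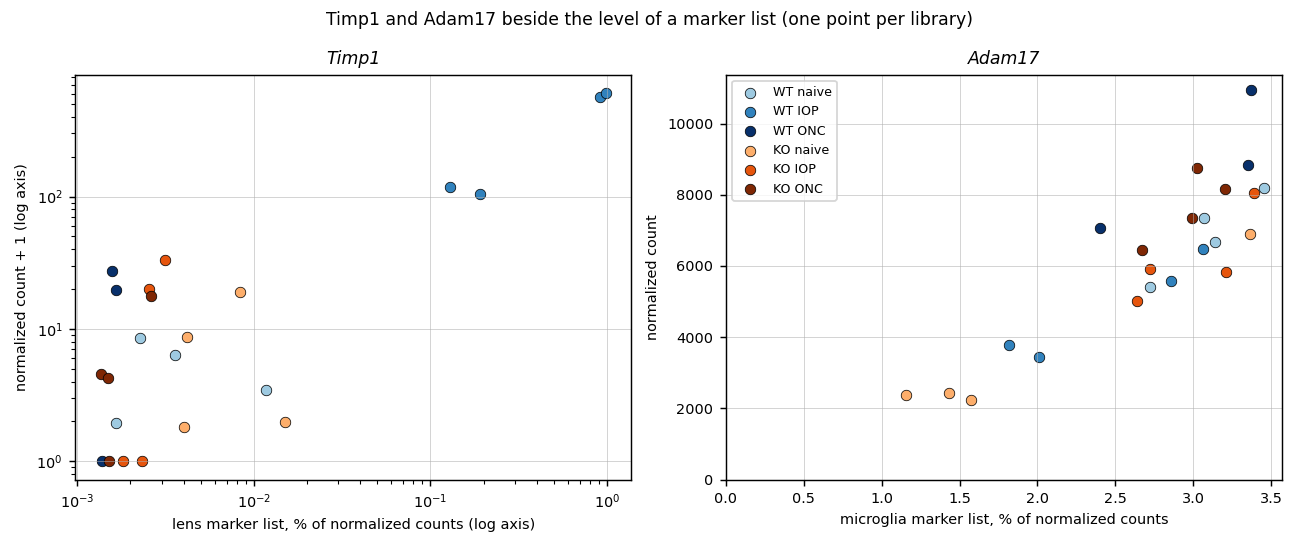
Left, Timp1 (normalized count plus 1, log axis) against the share of normalized counts on 9 lens markers (log axis); right, Adam17 (normalized count) against the share on 10 microglia markers; 1 point per library, coloured by group. The 4 WT IOP libraries stand apart in Timp1 and in lens share, and the 5 libraries with a microglia share of at most 2.01% hold the lowest Adam17 counts.

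Timp2, the inhibitor that also takes part in pro-MMP2 activation (chr11:118301069-118355740, minus strand), rose after crush in both genotypes. Its normalized counts were 958, 944, 964 and 1017 in WT naive, 994, 1203, 1164 and 1227 in WT IOP, and 2745, 1617 and 2809 in WT ONC libraries. The WT naive libraries were close to each other, and the 3 crush libraries lay above all WT naive and IOP libraries. The log2 fold change was 1.26 ± 0.25 (adjusted p = 0.00122, limma), a ratio of means of 2.46. Libraries labelled KO held 1000.1, 765, 1499 and 812 in naive, 1119, 1342, 1663 and 1699 in IOP, and 3659, 2782, 2325 and 1834 in ONC. The KO crush libraries lay above the other KO libraries, with a log2 fold change of 1.38 ± 0.23 (adjusted p = 0.000209, limma). With the mean of the microglia markers as a covariate the KO effect was 0.80 (adjusted p = 0.0902), and without the 5 libraries of low microglia share it was 0.78 (adjusted p = 0.383). The genotypes differed by 0.15 after crush, with a 95% interval from -0.36 to 0.66.

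Adam17, the sheddase that releases TNF (chr12:21323509-21373632, minus strand), had the highest level per length of the 9 genes in WT naive libraries. Adam17 had normalized counts of 8178, 5421, 6676 and 7336 in WT naive, 3769, 5578, 6465 and 3443 in WT IOP, and 8828, 7064 and 10941 in WT ONC libraries. In libraries labelled KO, Adam17 had 2368, 2434, 6899 and 2245 in naive, 5840.1, 5918, 8038 and 5016 in IOP, and 7336, 8157, 8751 and 6442 in ONC. The 5 lowest values of all were those of the 5 libraries of low microglia share, and the single KO naive library with a share like the rest, replicate 3, held a level within the range of the WT naive libraries. Adam17 was called higher in KO IOP than in KO naive (0.99 ± 0.28, adjusted p = 0.0383, limma) and higher in KO ONC than in KO naive (1.31 ± 0.28, adjusted p = 0.00209, limma). The genotype by IOP interaction was 1.54 ± 0.40 (adjusted p = 0.0227, limma), where WT libraries changed by -0.55 ± 0.28 (adjusted p = 0.415). Without the 5 libraries of low microglia share these 3 log2 values were -0.18, 0.14 and 0.01 (adjusted p = 1, 0.881 and 0.998, limma). The KO IOP call was also lost in 7 of the 8 fits that left out 1 library, and stood at 1.38 without KO naive replicate 3. In WT the crush effect was 0.37 with a 95% interval from -0.27 to 1.00.

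Adam8, a protease of activated myeloid cells (chr7:139978932-139992562, minus strand), stood at low levels and was not called. Its normalized counts were 124, 34.3, 43.9 and 65.0 in WT naive, 78.8, 113, 20.7 and 62.9 in WT IOP, and 48.3, 203 and 105 in WT ONC libraries. Libraries labelled KO held 58.8, 49.1, 57.2 and 74.8 in naive, 113.01, 57.3, 75.3 and 39.4 in IOP, and 129, 309, 195 and 79.6 in ONC. The KO crush libraries lay above the KO naive libraries, with no overlap, and the WT crush libraries overlapped with the WT naive ones. The KO ONC effect was 1.40 ± 0.56 in limma (adjusted p = 0.0737), 1.60 in edgeR (adjusted p = 0.0457) and 1.57 in DESeq2 (adjusted p = 0.0179) on the recovered reads. In WT the effect was 0.76 with a 95% interval from -0.50 to 2.03.

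**Figure D4:**
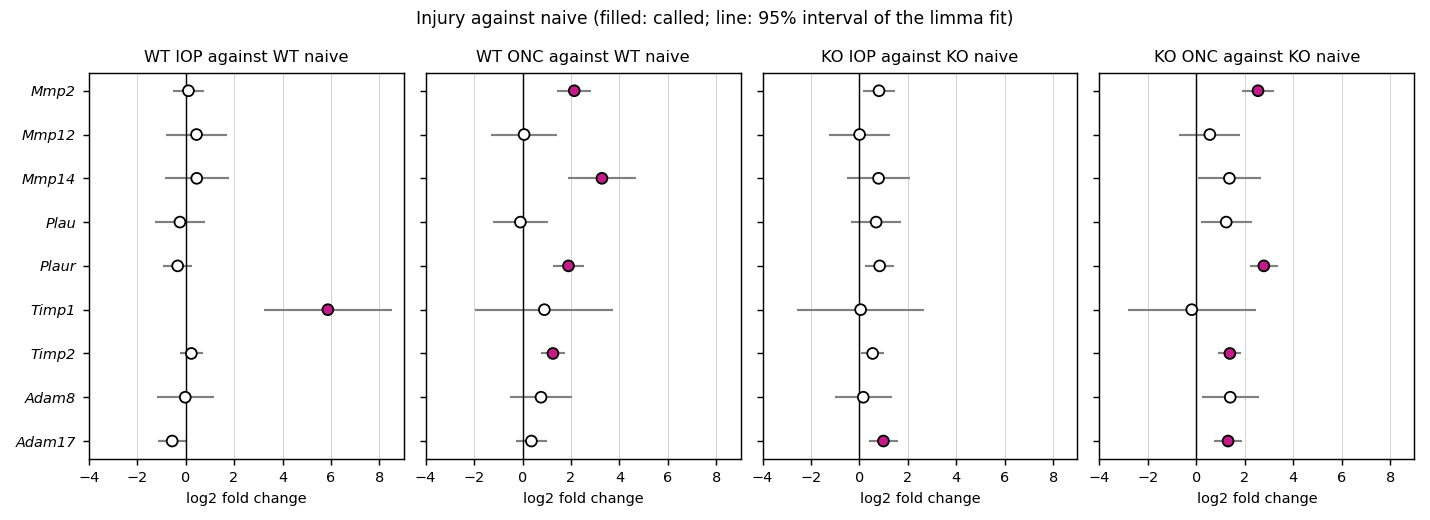
Log2 fold change of each gene for injury against naive in each genotype (points, filled where called), with the 95% interval of limma's fit. Mmp2, Plaur and Timp2 are called after crush in both genotypes, Mmp14 in WT ONC, Adam17 in KO IOP and KO ONC, and Timp1 in WT IOP.

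Between KO and WT, the 9 genes gave 1 call, the lower Timp1 after raised pressure. After crush the differences ranged from -0.92 for Timp1 to 0.64 for Adam8 on the log2 scale. The intervals for Mmp2 (-0.44 to 0.95), Plaur, Timp2 and Adam17 (-0.85 to 0.43) lay within 1 log2 unit of 0, whereas those for Mmp14 (-2.08 to 0.75), Mmp12 (-1.90 to 0.83), Plau (-0.85 to 1.41), Adam8 (-0.63 to 1.90) and Timp1 (-3.76 to 1.93) reached beyond it. In naive libraries Adam17 was lower in KO by 1.15 ± 0.28 on the log2 scale with an adjusted p = 0.0636, and edgeR did not call any of the 9 genes there while DESeq2 called Adam17. Without KO naive replicate 3 the Adam17 difference was -1.54 (adjusted p = 0.000177) and that of Plau -1.67 (adjusted p = 0.0136, limma). Without the 5 libraries of low microglia share they were 0.02 and 0.85 (adjusted p = 1 for both). After raised pressure Mmp14 was 1.58 ± 0.63 higher in KO (adjusted p = 0.165, limma) and was called by DESeq2 alone (2.08, adjusted p = 0.0195). The crush comparison of genotypes gave 0 calls in edgeR and in DESeq2 as well.

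Other genes of the same systems were followed in 5 lists. They held 17 further MMPs with 13 tested, 12 further plasminogen system genes with 10 tested, and 10 further inhibitors. An ADAM list of 15 genes held ADAM and ADAMTS genes and the cofactors Rhbdf1, Rhbdf2 and Frmd8. A list of 6 peptidases, Mme, Ide, Ece1, Ece2, Htra1 and Prep, was named for amyloid-beta. Whether each of the 6 degrades amyloid-beta was not examined. After crush in WT, 10 of the 54 tested list genes were called (18.5%, against 18.1% of all genes). The 13 MMPs gave 1 higher and 3 lower calls, and their median change was -1.72 on the log2 scale. Mmp25, a glycolipid-anchored metalloproteinase, rose from 17.9 ± 3.17 to 241 ± 75.7 (3.65 ± 0.73, adjusted p = 0.0015), whereas Mmp9, gelatinase B, fell from 2246 ± 199 to 246 ± 148 (-3.45 ± 0.44, adjusted p = 1.8e-05, limma). The 2 gelatinases, Mmp2 and Mmp9, thus moved in opposite directions after crush in WT. Mmp13, a collagenase, fell by 3.61 ± 1.04 (adjusted p = 0.0194), and Adam19 fell by 4.21 ± 0.89 (adjusted p = 0.00245, limma), the only call among the 15 genes of the ADAM list. A list of 7 markers of border macrophages, which lie along vessels and meninges, was lower in the same libraries, at 0.00582% to 0.0250% of normalized counts in WT ONC against 0.0676% to 0.147% in WT naive. For 6 of its 7 genes all WT ONC libraries lay below all WT naive libraries, and no gene of the list was at 0 in all of them. In KO ONC, 0 of the 7 genes lay so below KO naive, while Mmp9 ranged from 432 to 552 against 901.5 to 1073. In WT IOP the list averaged 0.125% against 0.119% in WT naive, while Mmp9 averaged 658 against 2246. The part of such cells in the lower Mmp9, Mmp13 and Adam19 levels was not tested. Of the 10 inhibitors, 1 was called, Cst7, which encodes cystatin F, a lysosomal inhibitor of cysteine proteases. It rose from 329 ± 58.5 to 5654 ± 122 (4.12 ± 0.30, adjusted p = 5.2e-08, limma). Among the plasminogen genes 1 was higher and 0 lower, and among the 6 listed peptidases 1 was higher and 2 lower.

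After crush in KO, Cst7 rose from 202 ± 64.9 to 7260 ± 1368 (5.19 ± 0.27, adjusted p = 1.1e-10, limma), and Mmp25 rose by 2.60 ± 0.68 (adjusted p = 0.0077, limma). Adamts5, Mmp16 and Mmp21 fell, with log2 fold changes of -2.83, -2.59 and -2.36 (adjusted p = 0.00946, 0.00848 and 0.0475, limma). In all, 17 of the 54 list genes were called (31.5%, against 23.6% of all genes). They were 1 higher and 2 lower of 13 MMPs, 3 and 1 of 10 plasminogen genes, and 5 and 1 of 15 genes of the ADAM list. Of the 10 inhibitors 2 were higher and 1 lower, and of the 6 peptidases 0 and 1. Without the 5 libraries of low microglia share Cst7 was the single call left in these lists for KO ONC, KO IOP and KO IOP against WT IOP, while calls over all genes in KO ONC fell from 4043 to 113.

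After raised pressure 4 of the 54 list genes were called in WT (7.41%, against 1.56% of all genes) and 8 in KO (14.8%, against 7.88%). In WT, Serpina3n, a serine protease inhibitor, rose from 115 ± 106 to 1781 ± 1238 (4.16 ± 0.99, adjusted p = 0.0343, limma), and S100a10, a partner of annexin A2 in plasminogen binding, rose from 176 ± 47.1 to 1006 ± 488 (2.41 ± 0.36, adjusted p = 0.00103, limma). Mmp9 fell by 1.98 ± 0.41 (adjusted p = 0.0128), and Serpine2, which inhibits thrombin and urokinase, fell by 1.11 ± 0.22 (adjusted p = 0.012, limma). Without the 5 libraries of low microglia share none of these 4 genes was called in WT IOP, where calls over all genes fell from 267 to 20. In KO IOP, 4 of the 15 genes of the ADAM list were called higher. Among them were the cofactor Frmd8, which stabilises the ADAM17 complex at the cell surface (1.08 ± 0.27, adjusted p = 0.0241, limma), and Adam10 (1.02 ± 0.31, adjusted p = 0.0442, limma). Cst7 rose by 2.39 ± 0.27 (adjusted p = 0.000131) and Serpine2 by 0.99 ± 0.22 (adjusted p = 0.018), while Vtn, the matrix protein vitronectin, fell by 1.06 ± 0.32 (adjusted p = 0.0445, limma). As with Adam17, the calls of the ADAM list in KO IOP were not made without the libraries of low microglia share.

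Between genotypes, Serpine2 was lower in KO naive libraries (-1.48 ± 0.22, adjusted p = 0.00781), and after raised pressure S100a10 was lower in KO (-1.96 ± 0.36, adjusted p = 0.0057) and Cst7 higher (1.90 ± 0.27, adjusted p = 0.00046, limma). After crush none of the 54 tested list genes differed between genotypes by limma's call. The genotype by IOP interaction was called for 11 list genes, 20.4% of the 54 against 8.75% of all genes, with the largest values for Serpina3n (-4.64), S100a10 (-2.72), Spint1 (2.69), Cst7 (2.63) and Mmp9 (2.26), at adjusted p = 0.0424, 0.00579, 0.0266, 0.000781 and 0.0205 (limma). Without the 5 libraries of low microglia share neither the KO naive call of Serpine2 nor any of these 11 interactions was made, and calls over all genes in the interaction fell from 1496 to 12. Serpina3n and S100a10 shared with Timp1 a WT IOP call and a lower KO interaction. The 4 WT IOP libraries that carry these calls are those with lens transcripts, and they also had higher mean Gfap, Vim and Lcn2 than WT naive. The part of lens, glial or myeloid transcripts in these calls was not tested.

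Over all 23 libraries, Mmp2 and Timp2 had a Pearson r of 0.91 and Mmp2 and Plaur of 0.89 on the log2 scale, as a description in which group differences and library purity enter. The genes most like each member among 17101 others were, for Mmp2, Tmed3 (0.96), H2-T22 (0.96) and Lgals3bp (0.96), and for Mmp14, Brf1 (0.98) and Pitpna (0.97). Plaur was most like Ctsb (0.95), which encodes the lysosomal protease cathepsin B, then Siglecf (0.95) and Stxbp2 (0.94), and Timp2 was most like Lamp1 (0.94), a lysosomal membrane protein, Mrps15 (0.93) and Sh3glb1 (0.93). Adam17 was most like Frmd8 (0.96), Lgmn (0.96), the lysosomal protease legumain, and Msn (0.96). For Timp1 they were Gm9973 (0.83), Lctl (0.82) and Cryab (0.82), a small heat shock protein abundant in the lens, and for Plau Eef2k (0.84), Nars (0.84) and Cd200r1 (0.82). Mmp12 and Adam8 had no gene with r above 0.76, their nearest being Gm12808 (0.76), 1700030K09Rik (0.72) and Ankrd28 (0.66) for Mmp12, and Slu7 (0.74), Gnptg (0.73) and Asb11 (0.70) for Adam8.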

How the data were processed

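RNA of sorted GFP+ retinal microglia was sequenced as paired reads in 23 libraries. The deposited values are a signal per gene, normalized counts in which the authors divided whole reads by 1 size factor per library; per the labels STAR and DESeq2 were used with GRCm38, whereas the paper's methods name salmon. Alignment options were not given in the sources used here. Values were whole multiples of 1 read in 100% of cases within 0.01 read, so reads were recovered for all 23 libraries. Gene names came from GENCODE vM21 (35436 of 35825 identifiers matched), and exon lengths from its merged exons.

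Levels were tested as log2(normalized count + 1) with limma 3.58.1 (lmFit, contrasts, eBayes with a trend) in R 4.3.3, in 1 fit of 6 groups over 17102 genes with at least 10 in at least 3 libraries, with Benjamini-Hochberg adjustment over all tested genes in each of 9 comparisons. Named genes were all 9 members, at most 5 called list genes with the largest change per comparison, and the 3 genes most correlated with each member, of which 1 is not reported here. edgeR 4.0.16 and DESeq2 1.42.0 were run on recovered reads. On simulated data limma recovered 73 of 100 genes changed 4-fold and 13 of 100 changed 2-fold in a design of WT ONC against WT naive (16842 genes). Members and lists were chosen with earlier results of these data known. Alternatives were another added constant, no filter, upper-quartile rescaling, a replicate block, a rod marker covariate, edgeR, DESeq2 and leaving out each library; added after seeing the data were covariates for mural and microglia markers and fits without libraries labelled KO with Spp1 above 100 or with a microglia share under 2.2%. Counting intervals cover counting error only.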

Additional observations from a re-analysis of the deposited data

Results flagged for a closer look

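Plau in KO naive replicate 3 (225 normalized counts) stood apart from the other 3 libraries of its group, as did Adam17 in the same library (6899). Plau in KO IOP replicate 4 (176) stood apart from the other 3 KO IOP libraries. Of 45 groups of 4 libraries examined, 3 held such a value, and chance marks about 1 group in 20.

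The effect of raised pressure differed between genotypes for Timp1, with an interaction of -5.82 on the log2 scale, and for Adam17, with an interaction of 1.54. The first was called in 5 and the second in 6 of 11 alternative fits.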

How the results depend on the processing

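After crush, 4 of the 9 genes were called in WT under each of the 11 alternatives. In KO the count was 4, and it was 5 in edgeR and in DESeq2, where Adam8 was added, 3 with the rod covariate, 2 with the microglia covariate, and 1, Plaur, without the libraries labelled KO with Spp1 above 100 (1 KO ONC library left) or without those of low microglia share (1 KO naive library left). Calls over all genes fell from 4043 to 626, 507, 194 and 113 in these 4 fits. KO IOP had 1 call, and 0 without a filter, with the rod or microglia covariate, in edgeR, without libraries with Spp1 above 100 and without those of low microglia share, where the Adam17 value turned to -0.18. In DESeq2 the 1 call was Plaur and not Adam17 (0.83, adjusted p = 0.0549), so Adam17 was called in 4 of the 11 alternatives. WT IOP had 1 call and 0 without the libraries of low microglia share. KO IOP against WT IOP had 1 call, 0 with the rod or microglia covariate, in edgeR or without the libraries of low microglia share, and 2 in DESeq2. The genotype by IOP interaction had 2 calls, 1 without a filter and 0 with the rod or microglia covariate, in edgeR, without libraries with Spp1 above 100 and without those of low microglia share. KO naive against WT naive had 0 calls, and 1 with the replicate block, in DESeq2 and with the mural and fibroblast covariate. The causes were not tested. Leaving out 1 library gave 0 to 1 calls in WT IOP, 4 in WT ONC, 0 to 4 in KO IOP, 4 to 6 in KO ONC, 0 to 2 in KO naive against WT naive, 0 to 1 in KO IOP against WT IOP, 0 in KO ONC against WT ONC, 0 to 3 in the IOP interaction and 0 to 1 in the ONC interaction. The 4 calls in KO IOP and the 2 in KO naive came without KO naive replicate 3.

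Replicate numbers did not pair the libraries: over 55 pairs with the same number the correlation of deviations ranged from -0.253 to 0.230, and 7 of 23 libraries correlated best with their own number. The replicate block changed no other count. Over all genes, edgeR called 209 and DESeq2 583 in WT IOP (limma 267), 2619 and 3692 in WT ONC (3093), 546 and 1911 in KO IOP (1347), 3704 and 4567 in KO ONC (4043), 26 and 540 in KO naive against WT naive (70), 244 and 938 in KO IOP against WT IOP (360), 2 and 100 in KO ONC against WT ONC (15), 1207 and 2161 in the IOP interaction (1496) and 3 and 229 in the ONC interaction (12). Depth limits Timp1, which held 19 to 51 reads over a whole group outside WT IOP.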
